A study of Mus musculus with 12 samples.

Results

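The RNAs described here are the autosomal genes of mouse macrophages that the deposited tables list only as RefSeq noncoding transcripts and that held a mean of at least 50 reads over 12 libraries. They number 144 of 24445 named genes, and of 3820 genes listed only as noncoding. The cells were bone marrow-derived macrophages, grown for 7 to 8 days from the marrow of C57BL/6 mice in medium conditioned by L929 cells, which secrete the growth factor M-CSF. The 4 groups of 3 libraries, called biological replicates in the labels, were wild type (WT) untreated, WT with lipopolysaccharide (LPS) at 10 ng/mL for 3 hours, and the same conditions in cells labelled knockout (KO) for the histone methyltransferase DOT1L in myeloid cells, with Lyz2 named beside the strain. LPS, here from Escherichia coli O111:B4, is a bacterial cell wall component sensed by the receptor TLR4. The labels do not say which part of Dot1l was deleted, whether the WT mice carried the Lyz2 allele, or whether cultures were pooled from several mice.

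The mean read count chose the members, so their abundance is a description and is not tested. Gm20300 at 53.9 reads, 1110002L01Rik at 53.3, Abhd1 at 52.3, 1700113A16Rik at 50.6 and E230013L22Rik at 50.4 lay just inside the limit. Mir703 at 49.9, 4933433G19Rik at 49.6, 1700052K11Rik at 49.3, and Mir7676-1 and Mir7676-2 at 49.2 each lay just outside it. A further 3481 autosomal noncoding genes were under the limit, 2050 of them with no read in any library, and 9 over the limit were left out as not autosomal. By role, the 144 comprised 9 microRNA genes, 3 microRNA host genes, 10 host genes of small nucleolar RNAs (snoRNAs), 7 regulatory or architectural long noncoding RNAs, 3 imprinted RNAs, 2 macrophage or LPS-related RNAs, 12 named antisense or divergent transcripts, 31 pseudogenes, 5 transcripts spanning 2 or more coding genes on 1 strand, 4 genes that the current RefSeq table lists as coding, and 58 others. On GRCm38.p6, the assembly of mm10, 32 lay wholly inside a coding gene (18 on the opposite strand, 11 on the same strand, 3 of unknown strand), 62 overlapped one in part and 50 lay apart.

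Noncoding genes act through their RNA or through the small RNAs cut from it. A microRNA is released from a hairpin in its precursor by the nucleases Drosha and Dicer, and its seed bases pair with the messenger RNAs it represses. SnoRNA host genes are spliced, and snoRNAs from their introns guide the modification of ribosomal RNA, whereas architectural RNAs such as Neat1 hold nuclear bodies together. In macrophages LPS acts through NF-kB and through interferon, and the miR-155 precursor is a known target of this signalling. Libraries made with a poly(A) kit show the precursor or host transcript, not the mature microRNA.

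The mature microRNAs of the members that changed most or stood highest are shown to identify the genes counted. They come from RefSeq (GRCm38.p6), are read 5′ to 3′, and have the seed, bases 2 to 8, in capitals.
mmu-miR-155-5p: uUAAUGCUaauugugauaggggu
mmu-miR-155-3p: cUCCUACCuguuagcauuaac
mmu-miR-22-3p: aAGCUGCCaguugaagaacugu
mmu-miR-147-5p: uGGAAACAuuucugcacaaacuag
mmu-miR-6381: cAGGAUGCuggugacaugagu
mmu-miR-6340: gUCAGCAGcagcuucgcuuuggc
mmu-miR-5114: aCUGGAGAcggaagcugcaaga
mmu-miR-1892: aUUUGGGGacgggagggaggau
mmu-miR-6236: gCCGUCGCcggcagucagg
RefSeq held mature sequences for all 9 microRNA genes and all 3 microRNAs inside host genes, 15 sequences in all, and no seed occurred more than once among them. The mature miR-155-5p lies at chr16:84714143-84714165 (plus strand) inside Mir155hg (chr16:84713023-84715245), and miR-22-3p at chr11:75463772-75463793 (plus strand) inside Mir22hg (chr11:75461539-75466690). The Mir147 hairpin (chr2:122640803-122640881, plus strand) lies with 100% of its bases in exons of the coding gene AA467197 on the same strand. The same holds for Mir5114 (chr19:44303171-44303231, plus strand) in Scd2, a stearoyl-CoA desaturase, and for Mir1892 (chr12:54645933-54646012, minus strand) in Sptssa, a subunit of serine palmitoyltransferase. Reads of these 3 hairpins and of their coding genes cannot be told apart. Mir686, with 100% of its bases in same-strand exons of Psmb5, has the same limit. So does Mir8094 for the 76.9% of its bases in same-strand exons of Ddx39b. Mir6381 (chr3:142623860-142623946, minus strand) lies opposite Gbp2, an interferon-inducible GTPase, with 27.6% of its bases in Gbp2 exons, and Mir6340 (chr2:173701030-173701148, minus strand) lies opposite Rab22a, a small GTPase of endosomes, with 100% in its exons. Mir6236 (chr9:110281287-110281409, plus strand) overlapped no coding gene.

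Library totals over 1 transcript per gene ran from 8642581 to 13542953 counts, of which the 144 members took 0.516% to 0.719%. A floor of 3 counts equals 0.222 to 0.347 CPM, the field's usual measure of counts scaled to library size, and all intervals and floors here cover counting error only. LPS separated the libraries along the first principal component (85.6% of the variance), and both WT replicate 1 libraries stood apart on the second (4.44%), at 36.1 and 35.6 against -12.9 to 3.55 for the other 10. Replicate 2 of all 4 groups had 0.202 to 0.646 CPM of Xist and the other libraries 542 to 822. Dot1l itself stood at 101 ± 16.4 CPM in WT and 90.0 ± 6.79 in KO (SD, n = 3) without LPS, with a KO against WT log2 fold change of -0.15 ± 0.13 (SE, adjusted p = 0.902). With LPS it stood at 65.7 ± 4.51 and 69.6 ± 4.07 CPM (0.07 ± 0.09, adjusted p = 0.754). Whole-gene counts do not check the genotype, since the deleted part is not stated and reads by exon were not examined. Lyz2 stood at 2759 ± 237 CPM in KO against 6250 ± 836 in WT without LPS (-1.16 ± 0.11, adjusted p = 0.0784) and was lower in KO with LPS, at 3135 ± 263 against 7003 ± 851 (-1.17 ± 0.10, adjusted p = 0.00143). Macrophage markers summed to 4379 to 6918 CPM in the 12 libraries, and all 5 lymphocyte markers were under 1 CPM in each. In bulk samples, fewer cells of a type and less RNA per cell cannot be told apart.

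Levels between genes are compared per length, with the authors' RPKM. In WT untreated cells the highest members were Mir6236 at 1048 ± 276 RPKM (SD, n = 3), Mir5114 at 234 ± 134, Mir1892 at 177 ± 5.01, Mir6367 at 124 ± 80.2, and Malat1, a nuclear RNA of splicing speckles, at 118 ± 28.5. The first 4 are short hairpins, for which RPKM divides the reads by a small length. With LPS, WT cells held Mir6236 at 1432 ± 153, Mx1 at 572 ± 5.67 and AW112010 at 545 ± 47.0 RPKM as the highest members. The LPS and untreated tables were normalized separately by the authors, so RPKM levels are set side by side only within a condition.

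With LPS, 95 of the 144 members changed in WT, 50 higher and 45 lower, where 57.4% of all 11984 genes tested did (27.6% higher, 29.8% lower; edgeR's quasi-likelihood test, adjusted p under 0.05). In KO 92 changed, 48 higher and 44 lower, beside 61.2% of all genes (30.3% higher, 30.9% lower). Among the 9805 tested genes with a mean of at least 50 reads the called share was 59.9% in WT and 63.1% in KO, against 66.0% and 63.9% of the members. The median log2 fold change of the members was 0.01 in WT and -0.01 in KO, beside -0.05 and -0.02 over all genes tested. Untreated and LPS libraries did not overlap for 90 members in WT (62.5%, all genes 57.8%) and for 110 in KO (76.4%, all genes 74.1%). The read limit bears on these counts, since 15 members reached a mean of 50 only with LPS and 33 only without it. The 15 include Mir155hg, Cxcl11, Gm14023, Mir147, Mir6381 and 4933416M07Rik. The 33 include AU022793, E230016M11Rik, 2610507I01Rik, B230354K17Rik, Mir5114, Dnmt3aos, Pisd-ps1, Hmga2-ps1, Gm5512, Kcnq1ot1, Snhg1, Snhg3, Snhg5, Snhg17 and 2410006H16Rik. Of the other 96, 55 were called in WT (57.3%) and 52 in KO (54.2%).

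The genotypes shared 87 of these calls, 91.6% of the WT and 94.6% of the KO calls, and all 87 had the same direction. Over all genes tested, 6365 calls were shared, 92.6% of the WT and 86.8% of the KO calls, all in the same direction. Another 8 members were called in WT alone, 5 in KO alone and 44 in neither, which does not show a difference between genotypes. Past 4-fold, 18 members were higher and 5 lower in WT, beside 6.71% and 3.57% of all genes, and 18 were higher and 6 lower in KO, beside 6.99% and 3.78%. The read limit shaped this split, since 11 of the 18 rises in each genotype reached a mean of 50 reads only with LPS and all of the falls reached it only without LPS.

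**Figure D1:**
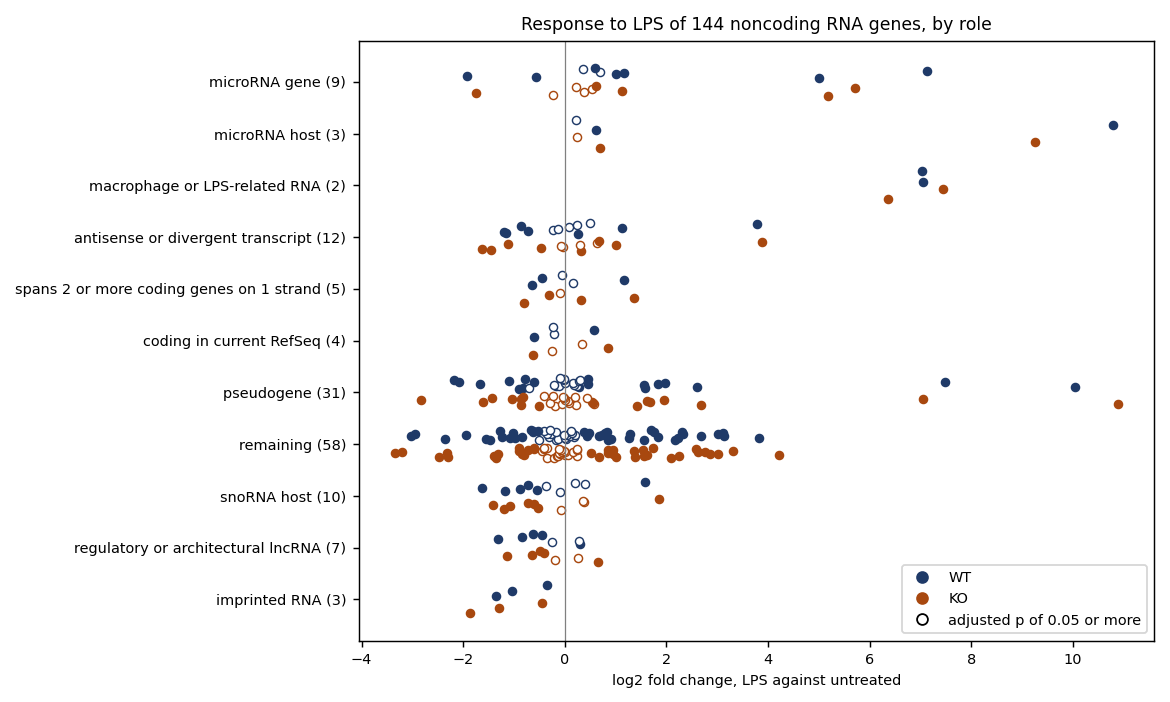
Log2 fold change with LPS (x axis) of the 144 noncoding RNA genes, grouped by role with the number of genes in parentheses, in WT and KO (3 libraries per group); open circles have an adjusted p of 0.05 or more. The rises past 4 log2 units in WT lie among microRNA genes and hosts, LPS-related RNAs and pseudogenes, while all 3 imprinted RNAs lie below 0.

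Mir155hg, the host gene of miR-155, had almost no reads without LPS and was readily counted with it. It held 1, 0 and 0 reads in the untreated WT libraries and 2, 2 and 0 in untreated KO, against 517, 533 and 573 in WT and 641, 741 and 633 in KO with LPS. Every LPS library was far above every untreated one in both genotypes. Pooled CPM were 2440.2-fold (exact 95% interval 437 to 96442) higher with LPS in WT and 683-fold (exact 95% interval 266 to 2507) higher in KO (adjusted p = 2.06e-11 and 1.62e-11, edgeR). With LPS it stood at 65.5 ± 11.8 CPM in WT and 61.5 ± 6.12 in KO, which overlapped.

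Of the other microRNA hosts, Mir22hg stood at 22.8, 28.1 and 34.2 CPM in untreated WT and 31.8, 31.5 and 35.6 with LPS (0.21 ± 0.13 log2, SE, adjusted p = 0.184), and the groups overlapped. In KO its log2 fold change was 0.24 ± 0.13 (adjusted p = 0.124). Gm38431, a transcript that holds Mir7082 and shares 68.6% of its exon bases with Raver1 exons on the same strand, rose by 0.61 ± 0.11 in WT and 0.69 ± 0.11 in KO (adjusted p = 0.000393 and 0.000108), where Raver1 rose by 0.78 ± 0.11 and 0.80 ± 0.11.

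Of the 9 microRNA genes, 5 were higher and 2 lower with LPS in WT (all genes 27.6% and 29.8%). In KO 4 were higher and 1 lower (all genes 30.3% and 30.9%). Mir147 and Mir6381 reached a mean of 50 reads only with LPS and Mir5114 only without it. The read limit therefore bears on these counts and changes. Mir147 held 1, 2 and 5 reads in untreated WT and 23, 101 and 60 with LPS, and 4, 7 and 7 against 166, 157 and 173 in KO, with no overlap in either genotype. Pooled CPM were 34.6-fold (exact 95% interval 17.2 to 81.3) higher in WT and 37.3-fold (exact 95% interval 23.4 to 63.5) higher in KO (adjusted p = 6.66e-07 and 3.26e-08). AA467197, in whose exons it lies, rose by 5.27 ± 0.13 and 5.19 ± 0.12 log2.

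Mir6381 rose from 0.194, 0 and 0.295 to 24.0, 23.6 and 23.2 CPM in WT and from 0.808, 0.464 and 0.390 to 29.8, 32.8 and 27.3 in KO. The 3 WT libraries with LPS lay within 1 CPM of each other, and no untreated library came near them. Pooled CPM were 149.9-fold (exact 95% interval 68.4 to 410.0) higher in WT, and the KO log2 fold change was 5.71 ± 0.25 (adjusted p = 2.6e-10 and 1.74e-10). Gbp2, on the other strand, rose by 6.61 ± 0.26 and 6.08 ± 0.25 log2.

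Smaller rises were those of Mir6340 (1.15 ± 0.17 in WT, 1.12 ± 0.16 in KO; Rab22a 1.07 ± 0.07 and 1.06 ± 0.07) and Mir8094, in exons of the RNA helicase gene Ddx39b (0.60 ± 0.20 and 0.60 ± 0.20, adjusted p = 0.0216 and 0.0162). In WT the log2 fold change of Ddx39b was 0.44. The Mir8094 call was lost without any 1 of 3 WT libraries (untreated replicate 2, LPS replicates 2 and 3; adjusted p 0.0566 to 0.0638) and without KO untreated replicate 1 or KO LPS replicate 3 (0.0666 and 0.0595). Mir5114 fell (-1.93 ± 0.42 log2 in WT and -1.75 ± 0.40 in KO), from 4.84, 17.4 and 17 to 2.25, 4.85 and 3.07 CPM in WT, with WT untreated replicate 1 inside the LPS range. Scd2 fell (-1.57 ± 0.09 in WT and -1.59 ± 0.09 in KO). Mir1892 fell in WT (-0.57 ± 0.12, adjusted p = 0.00094), at 14.3, 13.1 and 12.5 CPM without and 8.84, 9.20 and 8.76 with LPS, and missed the threshold in KO (-0.24 ± 0.11, adjusted p = 0.0888).

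Mir6236 rose in WT from 103, 106 and 153 to 268, 257 and 206 CPM (1.01 ± 0.26 log2, adjusted p = 0.00477), and the groups did not overlap. With the replicate number as a block the edgeR adjusted p was 0.0963 at a log2 fold change of 1.02. In KO it stood at 58.9, 112 and 93.4 and 160.5, 102 and 77.1 CPM (0.37 ± 0.26, adjusted p = 0.244), with overlap. Mir686 (0.35 ± 0.29 and 0.22 ± 0.29) and Mir6367 (0.70 ± 0.44 and 0.53 ± 0.38) did not pass the test in either genotype. In WT the log2 fold change of Psmb5, whose exons hold Mir686, was 0.33.

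Mx1 encodes an interferon-inducible antiviral GTPase whose C57BL/6 allele is known to be defective. It rose from 16.7, 12.2 and 7.45 to 2328, 2069 and 2039 CPM in WT (7.48 ± 0.24 log2, adjusted p = 9.15e-12). In KO it rose from 17.2, 16.9 and 20.2 to 2263, 2619.9 and 2302 CPM (7.05 ± 0.23, adjusted p = 1.04e-11). AW112010, annotated as noncoding and known as an LPS-induced macrophage transcript for which translation has been reported, rose from 7.74, 2.88 and 3.17 to 684, 566 and 514 CPM in WT (7.05 ± 0.29, adjusted p = 1.13e-10). Its KO values were 9.94, 8.58 and 8.97 and 669, 891 and 712 CPM (6.36 ± 0.27, adjusted p = 1.38e-10). For both genes all LPS libraries lay far above all untreated ones.

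Cxcl11, an interferon-inducible ligand of the chemokine receptor CXCR3 with a known null allele in C57BL/6, was near absent without LPS, with 0, 1 and 1 reads in WT and 1, 1 and 0 in KO. With LPS it held 554, 572 and 515 reads in WT and 1064, 1269 and 1130 in KO. Pooled CPM were 1234-fold (exact 95% interval 341 to 10195) higher in WT and 2346-fold (exact 95% interval 649 to 19379) higher in KO (adjusted p = 1.06e-11 and 3.18e-12). Gm14023, which overlaps the interleukin gene Il1a on the opposite strand with 12.5% of its exon bases in Il1a exons, rose from 0.581, 0.422 and 0.663 to 55.0, 85.7 and 77.5 CPM in WT, 136-fold (exact 95% interval 88.5 to 219.8) higher on pooled CPM. In KO it rose by 7.44 ± 0.29 log2 to 128, 83.1 and 122 CPM, where Il1a rose by 8.16 ± 0.25 in WT and 8.78 ± 0.25 in KO.

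**Figure D2:**
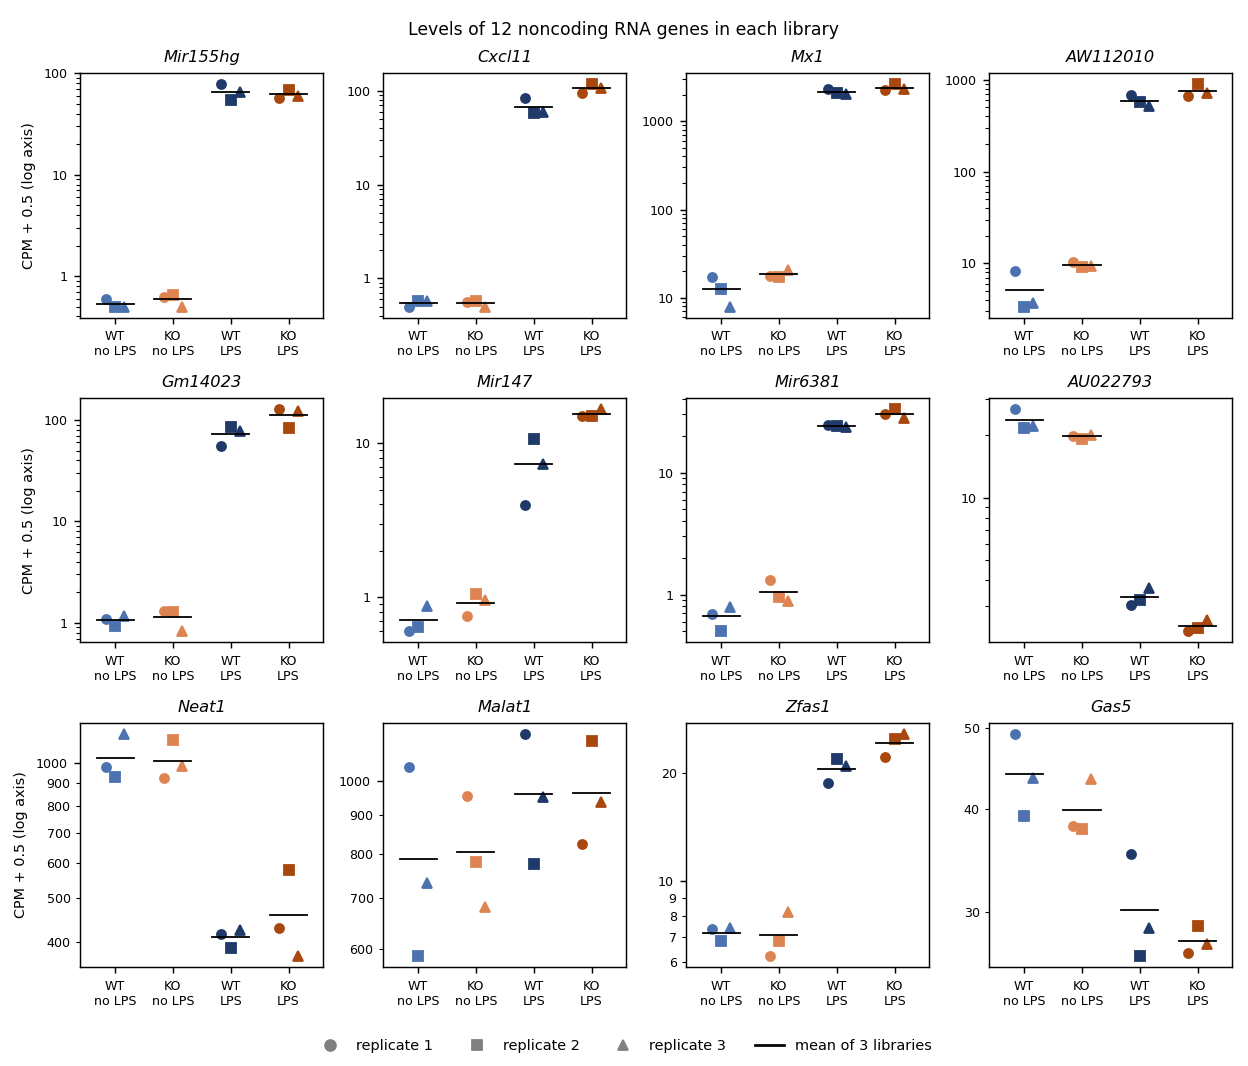
CPM plus 0.5 on a log axis in each of the 12 libraries, by group, for 12 noncoding RNA genes; marker shapes give the replicate number and lines the mean of 3 libraries. Mir155hg and Cxcl11 sit at or below 0.155 CPM in every untreated library, Neat1 falls with LPS in both genotypes, and the Malat1 groups overlap.

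RefSeq promoters, 250 bases before to 50 after the start, were held for 80 members, and 2 are shown because their genes had large rises. The kB motif, GGG then any 3 bases then TTCC, was searched on both strands and its match is in capitals.
AW112010: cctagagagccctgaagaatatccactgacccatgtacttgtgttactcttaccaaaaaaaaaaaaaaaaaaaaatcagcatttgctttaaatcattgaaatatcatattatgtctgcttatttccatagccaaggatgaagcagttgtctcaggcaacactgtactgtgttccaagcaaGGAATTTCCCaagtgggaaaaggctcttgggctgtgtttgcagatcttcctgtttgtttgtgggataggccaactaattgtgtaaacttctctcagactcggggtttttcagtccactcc
Mir155hg: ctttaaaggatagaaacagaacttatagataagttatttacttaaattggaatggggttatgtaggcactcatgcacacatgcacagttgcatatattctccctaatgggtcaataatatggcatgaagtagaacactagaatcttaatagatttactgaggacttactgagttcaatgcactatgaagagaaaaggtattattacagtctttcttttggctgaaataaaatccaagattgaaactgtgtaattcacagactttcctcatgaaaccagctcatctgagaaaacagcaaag
The first window is chr19:11050517-11050816 (minus strand) and holds 1 match, GGAATTTCCC, that begins at position -70 from the start. The second is chr16:84712773-84713072 (plus strand) and holds none. The motif was in 6 of the 80 member promoters (7.50%), in 5.52% of all 27025 promoters of this length and in 6.25% of the 9615 of tested genes. Among the 26 promoters of members higher in both genotypes 3 held it (AW112010, A630072M18Rik and E230013L22Rik), and among the 24 of members lower in both 2 did. The interferon element letters, GAAA then any 2 bases then GAAA on either strand, were in 4 of 80 member promoters (5%), beside 3.49% of all, and in 0 of the 26. No member promoter held both motifs. A match is a description of letters and not a site.

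Of the 7 regulatory and architectural RNAs, 4 were lower and 1 higher in both genotypes. Among all genes 29.8% were lower and 27.6% higher in WT, and 30.9% and 30.3% in KO. Neat1, the scaffold of paraspeckles, stood at 979.7, 929.7 and 1162 CPM in untreated WT and 415, 387 and 424 with LPS, and at 927, 1123 and 982 and 428, 577 and 371 in KO. The untreated and LPS libraries did not overlap, and the log2 fold change was -1.32 ± 0.14 in WT and -1.14 ± 0.14 in KO (adjusted p = 2.65e-06 and 1e-05). Malat1, its neighbour on chromosome 19, stood at 1042, 587 and 732 CPM in untreated WT and 1153, 777 and 951 with LPS (0.29 ± 0.20, adjusted p = 0.248). Its KO log2 fold change was 0.26 ± 0.20 (adjusted p = 0.289), and its untreated and LPS libraries overlapped in both genotypes.

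Tug1, a broadly expressed RNA, fell from 94.0 ± 15.0 to 61.1 ± 6.65 CPM (SD, n = 3) in WT (-0.62 ± 0.12 log2) and fell in KO (-0.48 ± 0.12). Norad, which binds Pumilio proteins, fell (-0.84 ± 0.15 in WT and -0.65 ± 0.15 in KO), and Oip5os1 (Cyrano), known to direct the destruction of miR-7, fell too (-0.44 ± 0.10 and -0.41 ± 0.10; adjusted p 0.000329 to 0.00247 over the 4 values). Chaserr, known to repress its neighbour Chd2, rose by 0.29 ± 0.11 in WT (adjusted p = 0.0419) and 0.65 ± 0.11 in KO (adjusted p = 0.000183), and Chd2 rose by 0.82 ± 0.13 and 0.89 ± 0.13. Dubr, the remaining one, had -0.25 ± 0.12 and -0.20 ± 0.12 and did not pass.

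All 3 imprinted RNAs were lower with LPS in both genotypes, beside 29.8% of all genes in WT and 30.9% in KO. One of them, Kcnq1ot1, reached a mean of 50 reads only without LPS, so the read limit bears on its fall. Kcnq1ot1, which silences genes in cis around Kcnq1, went from 16.4, 5.83 and 9.07 to 4.80, 2.73 and 4.66 CPM in WT and from 10.2, 7.19 and 8.12 to 2.30, 1.57 and 3.10 in KO, without overlap (-1.36 ± 0.36 and -1.87 ± 0.37 log2, adjusted p = 0.00517 and 0.000607). Peg13, which lies in an intron of Trappc9, fell from 28.3, 22.7 and 24.7 to 12.7, 10.3 and 13.9 CPM in WT (-1.04 ± 0.13) and fell in KO (-1.29 ± 0.13), where Trappc9 had 0.17 ± 0.16 and 0.20 ± 0.16 (adjusted p = 0.407 and 0.302). Snhg14, the long transcript of the Snrpn and Ube3a region, fell in WT (-0.35 ± 0.13, adjusted p = 0.0352) and KO (-0.46 ± 0.13, adjusted p = 0.00688). The WT groups of Snhg14 overlapped. Its WT call was lost with DESeq2 (adjusted p = 0.0700) and with RLE scaling (edgeR adjusted p = 0.0677). Without WT untreated replicate 1 the call was lost and the log2 fold change was -0.18. It was also lost without WT LPS replicate 2 or 3 or KO untreated replicate 1 or 2 (edgeR adjusted p 0.0503 to 0.132).

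Among the 10 snoRNA hosts, 5 were lower and 1 higher in WT (all genes 29.8% and 27.6%). In KO 6 were lower and 1 higher (all genes 30.9% and 30.3%). Snhg17, 2410006H16Rik, Snhg1, Snhg5 and Snhg3 reached a mean of 50 reads only without LPS, so the read limit bears on these falls. Zfas1, which starts beside Znfx1 on the opposite strand, was the one that rose, from 6.87, 6.33 and 6.93 to 18.3, 21.3 and 20.4 CPM in WT and from 5.72, 6.34 and 7.73 to 21.7, 24.4 and 25.2 in KO (1.58 ± 0.13 and 1.85 ± 0.13 log2, adjusted p = 1.87e-07 and 2.27e-08). Znfx1, an interferon-inducible helicase gene, rose by 2.63 ± 0.12 and 2.46 ± 0.12. Gas5, named for its rise in growth-arrested cells, fell from 48.8, 38.7 and 43.1 to 34.8, 26.1 and 28.2 CPM in WT (-0.56 ± 0.12, adjusted p = 0.00129) and fell in KO (-0.53 ± 0.12). Snhg17 fell furthest (-1.63 ± 0.26 and -1.41 ± 0.24), followed by 2410006H16Rik (-1.18 ± 0.28 and -1.20 ± 0.25), Snhg1 (-0.89 ± 0.20 and -1.08 ± 0.20) and Snhg5 (-0.73 ± 0.21 and -0.72 ± 0.19). Snhg3 passed the test in KO (-0.60 ± 0.20, adjusted p = 0.0196) and not in WT (-0.38 ± 0.21, adjusted p = 0.141). Snhg6 (0.39 ± 0.18 in WT), Snhg8 (0.20 ± 0.18) and 1110038B12Rik (-0.10 ± 0.15) passed in neither genotype.

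Among the 12 named antisense or divergent transcripts, 3 were higher and 4 lower in WT (all genes 27.6% and 29.8%). In KO 4 were higher and 4 lower (all genes 30.3% and 30.9%). Dnmt3aos reached a mean of 50 reads only without LPS, so the read limit bears on its fall. Slfn5os, opposite the interferon-inducible gene Slfn5 with 64.4% of its exon bases in Slfn5 exons, rose from 2.32, 4.43 and 2.65 to 38.4, 57.1 and 36.9 CPM in WT (3.79 ± 0.23) and by 3.89 ± 0.22 in KO, and Slfn5 rose by 3.94 ± 0.20 and 3.84 ± 0.20. Dnmt3aos, inside the DNA methyltransferase gene Dnmt3a, fell (-1.19 ± 0.18 in WT and -1.63 ± 0.18 in KO), and Dnmt3a fell (-1.78 ± 0.08 in WT and -1.83 ± 0.08 in KO). Brip1os (0.27 ± 0.07 and 0.32 ± 0.07) rose in both genotypes, and Zeb2os, inside the transcription factor gene Zeb2, passed in KO alone (0.50 ± 0.26 and 0.67 ± 0.26). The Zeb2os call was lost without KO untreated replicate 1 or 3 or any KO LPS replicate (edgeR adjusted p 0.0538 to 0.123). It was also lost with no filter on low counts (adjusted p = 0.0816). Cep83os, which overlapped no coding gene, fell (-1.15 ± 0.16 in WT and -1.45 ± 0.15 in KO).

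Members and the main coding gene each overlaps moved the same way wherever both passed the test. Of 94 main overlaps, both genes were tested in 91. In WT both were called in 49 pairs, all 49 in the same direction, the noncoding gene alone in 9, the coding gene alone in 15, and neither in 18. In KO both were called in 51, all in the same direction. The median gap between the log2 fold changes was 0.22 for the 64 opposite-strand pairs and 0.36 for the 21 same-strand pairs in WT, and 0.20 and 0.18 in KO. No source used here states whether the authors counted by strand, so reads of a gene and of an overlapping gene on the other strand cannot be told apart.

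A gap of over 1 log2 unit was found in 10 pairs in WT, named here after their values were seen. A630072M18Rik, opposite Rsbn1l with 95% of its exon bases in Rsbn1l exons, was the one in which the noncoding gene was higher, at 3.13 ± 0.17 against 0.88 ± 0.11. Its CPM were 5.22, 7.24 and 8.92 untreated and 53.5, 63.2 and 72.7 with LPS in WT, and 6.03, 7.42 and 6.24 and 55.6, 54.7 and 48.4 in KO. The coding gene was higher for Gm45928 with Clcf1 (-0.29 against 3.49), Snhg6 with Mcmdc2 (0.39 against 4.03), Hmga2-ps1 with Sdccag8, Pisd-ps1 with Sfi1, Peg13 with Trappc9, Ube2d-ps with Urgcp, Gm14023 with Il1a, 1110002L01Rik with Kif3c, and Zfas1 with Znfx1, with gaps of -3.78 to -1.05. The difference within a pair was not tested.

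**Figure D3:**
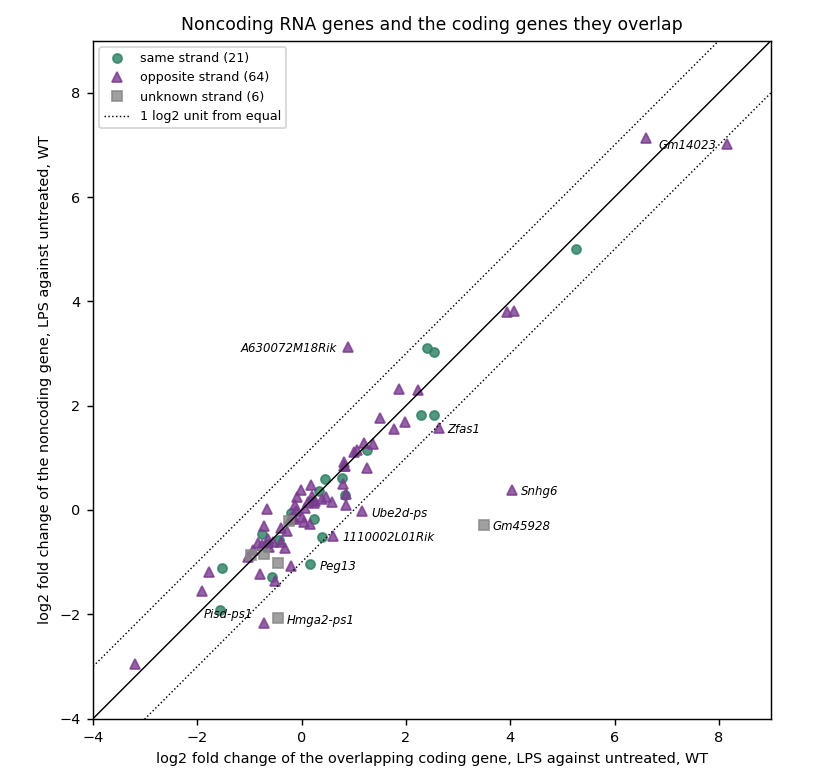
Log2 fold change with LPS in WT of 91 noncoding RNA genes (y axis) against the coding gene each overlaps (x axis), by relative strand; the solid line marks equal change and the dotted lines 1 log2 unit from it. The 49 pairs with both genes called lie in the lower left or upper right, and the 10 labelled pairs lie outside the dotted lines.

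The pseudogenes changed in both directions, with 10 of 31 higher and 8 lower in WT (all genes 27.6% and 29.8%). In KO 9 were higher and 8 lower (all genes 30.3% and 30.9%). Pisd-ps1, Hmga2-ps1, Gm5512, 2700099C18Rik and Nlrp1c-ps reached a mean of 50 reads only without LPS and Cxcl11 only with it. The read limit therefore bears on these counts and changes. Besides Mx1 and Cxcl11, the Bambi pseudogene Bambi-ps1 rose from 7.84, 5.06 and 5.23 to 34.3, 39.7 and 34.9 CPM in WT (2.61 ± 0.16) and by 2.68 ± 0.16 in KO, where Bambi itself, a decoy receptor of the TGF-beta family, had 0.33 ± 0.18 and 0.17 ± 0.18 and did not pass. Pisd-ps1 fell (-2.18 ± 0.20 in WT and -1.43 ± 0.18 in KO), where its parent Pisd rose in WT (0.24 ± 0.09, adjusted p = 0.0293) and did not pass in KO (0.18 ± 0.09). Hmga2-ps1 fell (-2.08 ± 0.27 in WT and -2.84 ± 0.28 in KO), where Hmga2 fell (-0.40 ± 0.10 in WT and -0.49 ± 0.10 in KO). Ubb-ps passed the test in WT alone, with values close to those of the ubiquitin gene Ubb (0.46 ± 0.09 against 0.46 ± 0.09 in WT, 0.20 ± 0.09 against 0.21 ± 0.09 in KO). Gm5512 fell (-1.67 ± 0.28 in WT and -1.61 ± 0.26 in KO), and Gpr137b-ps passed in neither (-0.00 ± 0.10 and -0.01 ± 0.10). Reads that match a pseudogene and its parent equally may have been counted in either, so these values are uncertain. H2-K2 (1.98 ± 0.14 and 1.95 ± 0.14), a relative of the class I antigen gene H2-K1, is uncertain for the same reason.

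Among the 5 transcripts that span neighbouring coding genes, Gm28043, Gm20716 and Gm44502 had 100% of their exon bases in coding exons. Gm20605 had 94.8%, and for Gm44505 this share was not available. Gm28043, over Cmtr1 with 100% of its exon bases in coding exons, rose by 1.16 ± 0.09 and 1.36 ± 0.09, and the cap methyltransferase gene Cmtr1 rose by 1.24 ± 0.09 and 1.47 ± 0.09. Gm20716, over Adnp, passed in KO alone (0.17 ± 0.11 and 0.32 ± 0.10). That call was lost without KO untreated replicate 3 or KO LPS replicate 2 (edgeR adjusted p = 0.0610 and 0.0537). Gm20605, over Lrch4, fell (-0.65 ± 0.09 in WT and -0.80 ± 0.09 in KO). Of the 4 genes now listed as coding, 2610001J05Rik rose (0.58 ± 0.11 and 0.84 ± 0.11), 0610012G03Rik fell (-0.60 ± 0.15 and -0.63 ± 0.15), and 1810058I24Rik and Mtln, the gene of the mitochondrial micropeptide mitoregulin, did not pass in either genotype.

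Of the 58 other members, 24 were higher and 16 lower in WT (all genes 27.6% and 29.8%). In KO 22 were higher and 15 lower (all genes 30.3% and 30.9%). AU022793, E230016M11Rik, 2610507I01Rik and B230354K17Rik, among others, reached a mean of 50 reads only without LPS. 4933416M07Rik, AI504432, Gdap10, D730005E14Rik and E230013L22Rik, among others, reached it only with LPS. The read limit therefore bears on these counts and changes. AU022793, apart from any coding gene, fell furthest, from 26.3, 21.3 and 21.7 to 2.55, 2.73 and 3.18 CPM in WT and from 19.4, 18.8 and 19.6 to 1.77, 1.85 and 2.07 in KO (-3.02 ± 0.14 and -3.34 ± 0.15 log2, adjusted p = 4.02e-10 and 1.51e-10). E230016M11Rik, opposite the stress gene Gadd45a, held 86, 65 and 91 reads without and 5, 7 and 9 with LPS in WT, a pooled CPM ratio of 0.130 (exact 95% interval 0.0793 to 0.204), and fell in KO (-3.21 ± 0.32 log2), beside -3.19 ± 0.26 and -3.36 ± 0.25 for Gadd45a. 2610507I01Rik fell (-2.36 ± 0.36 in WT and -2.30 ± 0.34 in KO), and B230354K17Rik fell too (-1.94 ± 0.15 and -2.32 ± 0.15). Gm12992 (0.84 ± 0.14 and 0.85 ± 0.14) and AI662270 (0.44 ± 0.17 and 0.52 ± 0.17) rose in both genotypes. For AI662270 the WT groups overlapped. Its WT call was lost without untreated replicate 2 or 3 or LPS replicate 1 or 3 (edgeR adjusted p 0.0698 to 0.147). The highest rise in this set was that of 4933416M07Rik, inside Rab11fip1 on the other strand, from 1.64, 2.11 and 1.55 to 26.1, 23.0 and 26.4 CPM in WT (3.81 ± 0.17; KO 4.21 ± 0.17), and Rab11fip1 rose by 4.07 ± 0.13 and 4.39 ± 0.13.

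Genes whose proteins act on these RNAs were called with LPS in shares of 52.9% in WT and 64.7% in KO for microRNA processing, 63.6% and 63.6% for paraspeckle proteins, 53.3% and 46.7% for the snoRNA-protein particles (snoRNPs), and 41.7% and 50.0% for nonsense-mediated decay, beside 57.4% and 61.2% of all genes. Of 18 microRNA processing and silencing genes, 17 were tested, with 2 higher and 7 lower in WT and 4 higher and 7 lower in KO. Zc3h12a (Regnase-1), an endonuclease that cuts mRNA and microRNA precursors, rose by 3.31 ± 0.10 and 3.20 ± 0.09, and Tnrc6b, which binds Argonaute to silence targets, fell (-2.08 ± 0.16 in WT and -2.36 ± 0.15 in KO). Dicer1 had -0.02 ± 0.10 and -0.02 ± 0.10 and did not pass. Of 11 paraspeckle protein genes 7 were higher and 0 lower in WT, and 6 higher and 1 lower in KO, among them Smarca4 (0.45 ± 0.07 and 0.46 ± 0.07) and Hnrnpk (0.35 ± 0.07 and 0.46 ± 0.07). Of 15 snoRNP genes 5 were higher and 3 lower in WT, and 5 higher and 2 lower in KO, with Nhp2 at 0.59 ± 0.12 and 0.67 ± 0.12 Nop56 at -0.73 ± 0.18 and -0.63 ± 0.18 and Nop58 at 0.28 ± 0.09 and 0.40 ± 0.09. Of 12 nonsense-mediated decay genes 4 were higher and 1 lower in WT, and 5 higher and 1 lower in KO, with Smg8 at 0.65 ± 0.10 and 0.80 ± 0.10. None of these 4 lists had a gene called between genotypes by edgeR in either condition. The smallest adjusted p were those of Nolc1 without LPS (-0.30 ± 0.09, adjusted p = 0.456) and Drosha with LPS (-0.36 ± 0.11, adjusted p = 0.181).

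Without LPS, no member was called between KO and WT. Of the members, 139 passed the low-count filter and 0 were called, as were 0 of all 11622 genes tested (0%) by edgeR. At an unadjusted p under 0.05 edgeR gave 11 members (all genes 7.24%), DESeq2 called 0 members and 0.422% of all genes, and limma-voom called 0 of either. The groups did not overlap for 17 members (12.2%, all genes 15.2%), and the median log2 fold change was 0.03, beside 0.00 over all genes. Mir155hg, Cxcl11, Mir6381, Gm14023 and Mir147 did not pass the filter. AW112010 stood at 7.74, 2.88 and 3.17 CPM in WT and 9.94, 8.58 and 8.97 in KO, with every KO library above every WT library (1.06 ± 0.34 log2, adjusted p = 0.483). Cep83os stood at 12.0, 11.6 and 12.8 and 17, 15.9 and 15.5 CPM (0.44 ± 0.11, adjusted p = 0.353). Gm15441, opposite the thioredoxin-interacting protein gene Txnip, stood at 110.5, 136 and 128 and 149.5, 186 and 149.7 CPM (0.39 ± 0.12, adjusted p = 0.429), and Txnip had 0.36 ± 0.12.

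This count of 0 turned on 1 library. Without WT untreated replicate 1, 6 members were called between genotypes, beside 6.34% of all genes in that fit: AW112010 (1.62 ± 0.17, adjusted p = 2.82e-05), Mx1 (0.90 ± 0.18), E230016M11Rik (0.76 ± 0.18), C920021L13Rik (0.46 ± 0.12) and Cep83os (0.43 ± 0.12) higher in KO, and Gm38431 (-0.26 ± 0.07) lower. Mx1 stood at 16.7, 12.2 and 7.45 CPM in WT and 17.2, 16.9 and 20.2 in KO, with replicate 1 the highest WT library. Pf4, the platelet factor gene and the one gene of the erythroid and megakaryocyte marker list above 1 CPM in these libraries (the other 4 were under 1 CPM throughout), gave list sums of 89.3 to 101 CPM in WT and 134 to 157 in KO without LPS and 135 to 142 against 176 to 252 with LPS. The dendritic cell list of 4 genes summed to 0.387 to 0.492 against 0.808 to 1.49 CPM without LPS and 2.25 to 2.93 against 3.72 to 4.34 with LPS, and Flt3 was under 1 CPM throughout. Their part in the genotype values was not tested.

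With LPS, 0 of 143 members passed the test between genotypes, beside 1.13% of 11264 genes tested. At an unadjusted p under 0.05 edgeR gave 27 members (all genes 13.8%), and 30 members did not overlap between genotypes (21.0%, all genes 20.3%). DESeq2 called 5 members (all genes 2.35%) and limma-voom 1 (all genes 1.11%). The median log2 fold change was 0.02, beside -0.01 over all genes. E230016M11Rik did not pass the filter. The smallest p was that of Cxcl11, at 83.0, 57.8 and 58.6 CPM in WT and 94.1, 117 and 106 in KO, each KO library above each WT library (0.67 ± 0.14 log2, adjusted p = 0.0507). It passed with DESeq2 (0.66 ± 0.15, adjusted p = 0.0021), with limma-voom (0.69 ± 0.14, 0.0436) and without WT LPS replicate 1 (0.85 ± 0.09, adjusted p = 4.14e-05). It also passed with no filter on low counts and with all 12 libraries in the fit (edgeR adjusted p = 0.0127 and 0.0443). Cxcl11 did not pass under the other alternatives, RLE scaling and the replicate block among them.

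With LPS Mir6236 stood at 268, 257 and 206 CPM in WT and 160.5, 102 and 77.1 in KO, each KO library below each WT library (-1.11 ± 0.24, adjusted p = 0.0673). It passed with DESeq2 (adjusted p = 0.0408), with the replicate number as a block (-1.17 ± 0.14, adjusted p = 0.0158) and without KO LPS replicate 1 (-1.45 ± 0.16, adjusted p = 0.00869). Mir6236 did not pass under the other alternatives, limma-voom among them. Mir147 stood at 3.45, 10.2 and 6.82 CPM in WT and 14.7, 14.5 and 16.3 in KO, each KO library above each WT library (1.09 ± 0.26, adjusted p = 0.0761), and passed with DESeq2 (1.11 ± 0.27, adjusted p = 0.00339) and without WT LPS replicate 1 or 2 (0.81 ± 0.17 and 1.49 ± 0.23). Under the other alternatives, limma-voom among them, Mir147 did not pass. AA467197, whose exons hold it, was higher in KO by 0.67 ± 0.08 (adjusted p = 0.00462). The WT libraries of Rpl14-ps1 differed widely, at 47.2, 10.3 and 27.0 CPM against 12.5, 11.3 and 14.6 in KO (-1.12 ± 0.44; without WT LPS replicate 2 -1.54 ± 0.22, adjusted p = 0.0145). Without WT LPS replicate 1, 5 members were called (Cxcl11, AI504432, Mir147 and AW112010 higher in KO, A630072M18Rik lower), beside 4.76% of all genes. Without WT LPS replicate 2, 4 were called (Slfn5os, Gm12191 and Mir147 higher, Rpl14-ps1 lower), beside 1.12% of all genes.

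**Figure D4:**
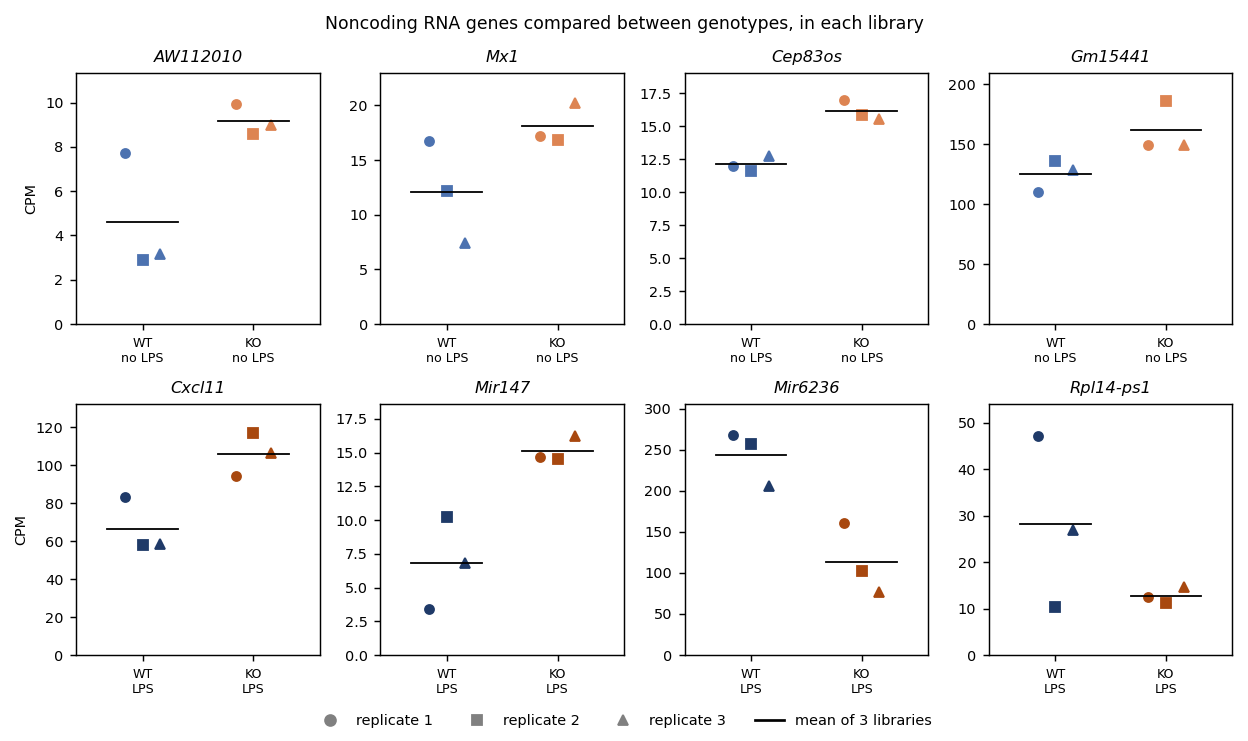
CPM in each library of WT and KO cells for 4 noncoding RNA genes without LPS (top row) and 4 with LPS (bottom row); marker shapes give the replicate number and lines the mean of 3 libraries, and axes start at 0. WT replicate 1 is the WT library closest to KO for AW112010 and Mx1, and Rpl14-ps1 ranges from 10.3 to 47.2 CPM among WT libraries with LPS.

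The response to LPS itself was not called different between genotypes for any member. By edgeR 0 of 144 members and 0 of 11984 genes (0%) had an interaction, with 4 members at an unadjusted p under 0.05 (all genes 2.40%), and DESeq2 and limma-voom called 0. Those 4 were 2700099C18Rik (0.72 ± 0.25 log2), Pisd-ps1 (0.74 ± 0.28), Mir6381 (-1.42 ± 0.59) and Chaserr (0.36 ± 0.16), each with an adjusted p of 0.999998 (edgeR). Pisd-ps1 stood at 1.05, 1.52 and 1.82 CPM in WT and 2.30, 2.40 and 2.54 in KO with LPS, after 6.39, 6.19 and 7.74 and 6.22, 6.34 and 7.02 without it.

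Spread between replicate libraries was also described. The median SD within groups was 0.20 on the log2(CPM + 0.5) scale over the 144 members and 0.16 over the 9805 tested genes with a mean of at least 50 reads, a description without a test. The least steady members were Rpl14-ps1 (0.85), Mir6367 (0.63), Mir5114 (0.59), Gm12191 (0.55) and Gm2518 (0.54). For Rpl14-ps1 and Mir5114, WT replicate 1 was the library apart without LPS, at 47.1 CPM against 8.79 and 12.8 for Rpl14-ps1 and at 4.84 against 17.4 and 17 for Mir5114.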

How the data were processed

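Poly(A) libraries of 12 macrophage cultures were sequenced single-end at 50 bp (per the labels' protocols). Alignment used STAR 2.5.2b and mm10, with SAMtools 1.3.1 also listed, per the submitters' processing notes. No source used here names the counting program, its handling of strand or the annotation version. The deposited counts are whole reads per RefSeq transcript, not normalized, in separate tables for untreated and LPS libraries. The deposited RPKM values, computed by the authors, served for levels between genes and as an alternative. Of 35745 transcripts, 35440 were named from RefSeq GRCm38.p6 and 188 from GENCODE. The other 117 (0.259% to 0.738% of counts) were left out. For each gene, the transcript with most reads over all libraries was kept. Positions and overlaps came from GRCm38.p6 and GENCODE, and 137 members had a strand.

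Counts were scaled by TMM and tested with edgeR 4.0.16 (R 4.3.3; filterByExpr, robust quasi-likelihood F test, Benjamini-Hochberg over all genes tested, 0.05). Genotypes were compared on 6 libraries per condition, and LPS responses and the interaction on all 12. CPM are on 1 TMM scale. SE is the log2 fold change divided by the root of F. Where every library of a group held at most 10 reads, the fold is a ratio of pooled counts over pooled TMM-scaled library sizes, with an exact binomial 95% interval. DESeq2 1.42.0, limma 3.58.1, other scalings, filters, replicate blocks and left-out libraries were alternatives. In simulated counts every gene had the same fixed spread between replicates, and no library was set apart. Genes changed by 1 log2 unit were called there in 88 of 99 cases in the untreated genotype fit (11628 genes). They were called in 91 of 104 in that with LPS (11244) and 84 of 98 in the fit of all libraries (11849). The simulated spread was not estimated from these data, so these shares do not measure the power of the real fits.

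Same-numbered untreated and LPS libraries deviated together within a genotype (correlations of 0.197 to 0.567). Differently numbered ones reached 0.135 in WT and 0.147 in KO. The numbers may thus pair cultures there, and the main LPS tests did not use such a pairing. Nothing states that replicates came from separate mice, so p-values measure the spread between these libraries. The members and lists were chosen with earlier results of these data known. Named genes were the 3 most abundant per role, all microRNA genes, the 8 largest changes per direction with LPS, the 3 smallest p per genotype comparison and interaction, their overlapping coding genes, and the 2 smallest p of each partner list. Not every gene that the rule picks is given with values, and 1 is not reported here. Genes named beyond that were chosen after their values were seen.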

Additional observations from a re-analysis of the deposited data

How the results depend on the processing

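The counts of members that changed with LPS kept within 1.5 times under every alternative run: 44 to 53 higher and 43 to 46 lower in WT, and 45 to 51 higher and 40 to 48 lower in KO, when single libraries were left out. Counts between genotypes moved. Without LPS they ran from 0 to 6 as libraries were left out. With LPS they ran from 0 to 5 as libraries were left out, and were 1 with no filter on low counts, 5 with DESeq2, 1 with limma-voom and 1 with all 12 libraries in the fit. The interaction count stayed at 0 to 0 throughout. With the replicate block, counts with LPS were 54 higher and 50 lower in WT and 55 higher and 49 lower in KO, and the block ended no named call but that of Mir6236 in WT. Between genotypes, same-numbered libraries had correlations of 0.0546 to 0.264 without and -0.0288 to 0.194 with LPS. Differently numbered ones reached 0.142 and 0.163. Replicate 2 was the library low in Xist in all 4 groups. Whether the numbers pair cultures across genotypes is thus not settled. The block between genotypes gave 0 members without LPS and 1 with LPS (Mir6236, -1.17). Of 83 named values, 66 kept their direction and side of the threshold under all alternatives run and 0 reversed; with replicates 1 and 3 alone 12 calls were lost. The cause of these moves was not tested, apart from the fewer libraries fitted. Scaling moved the median of all genes by at most 0.0346 log2 (LPS in WT, DESeq2). For 5 members there were too few untreated reads for a test between genotypes.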
